A study of Mus musculus with 8 samples.

Results

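The mRNAs of the translation initiation and elongation factors were followed in mouse liver during endotoxemia. Members were the rows whose gene symbol begins with Eif1 to Eif6, Eef1 or Eef2 and whose gene lies on an autosome, which gave 61 of the 23282 rows. Another 3 matching symbols, Eif2s3x, Eif1ax and Eif2s3y, lie on a sex chromosome and were kept apart. The control group received saline, the endotoxemic group received 25 mg/kg lipopolysaccharide (LPS, the bacterial endotoxin) and the LGK974 group received 60 mg/kg LGK974, an inhibitor of Wnt ligand secretion, together with 25 mg/kg LPS. All were C57BL/6 mice described as males 4 weeks old, livers were taken 6 h after LPS, and in most experiments of the study LGK974 was given 2 h before LPS. The labels give neither the LPS nor the dose for the LGK974 group, so these come from the methods of the study. They also call the LPS-injected mice controls and the saline-injected mice normal, whereas control means saline here. How many mice stand behind a library is not given in the sources used here.

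Initiation factors bring the initiator tRNA, the small ribosomal subunit and a capped mRNA together, and elongation factors then carry each aminoacyl-tRNA to the ribosome and move it along the message. The step most regulated in stressed cells is the loading of initiator tRNA by eIF2, which 4 kinases switch off by phosphorylating its alpha subunit, and the cap-binding step, which eIF4E-binding proteins block when the kinase mTORC1 is inactive. In liver, this machinery serves the acute-phase response, in which hepatocytes change the set of proteins they secrete after an endotoxin challenge. Counts of mRNA show neither the phosphorylation of these factors nor the rate of protein synthesis.

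Before any comparison, the libraries themselves set limits on what can be read. Endotoxemic libraries 3 and 4 repeated the counts of libraries 1 and 2 on every row and were counted once, so each group had 2 distinct libraries, with total counts from 9142116 to 15222439. A count of 3 corresponds to 0.197 to 0.328 counts in 1000000 reads (CPM) in these libraries, which covers counting error only. Sex-linked transcripts went against the labels: Xist, made by the inactive X chromosome of females, had 1444 and 3115 counts in control, 1171 and 1884 in endotoxemic and 3 and 7 in LGK974 libraries, while the Y-linked Ddx3y had 0 counts in all 4 control and endotoxemic libraries, against 1755 and 1392 in those of the LGK974 group. The endotoxemic and control groups therefore match each other in these transcripts, and every difference of the LGK974 group from either cannot be told apart from this one. The p-values below measure only the spread between these libraries.

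The table also carries symbols on rows that are not their own. Rows follow genomic order, and 579 of them have a symbol whose gene is over 2 Mb away from those of the adjacent rows. Of the 61 members, 59 stood in order and 2, Eif2ak1 and Eif3j2, did not. These 2 are described apart and are in none of the counts. Of the 59 members in order, 55 passed the filter on low counts. Eif4e1b and Eef1a2, the germ-cell cap-binding protein and the eEF1A of muscle and neurons, had 0 counts in every library. Eif5a2 had at most 4 counts in a library and Eif3j1 at most 3.

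In the endotoxemic livers, 13 of the 55 members tested rose against control and 4 fell (edgeR quasi-likelihood test, adjusted p below 0.05). These are 23.6% and 7.3% of the members, beside 20.4% of all rows tested that rose and 23% that fell. The share that rose was thus near that of the transcriptome, and the share that fell was smaller than that of the transcriptome. The median log2 fold change over the members was 0.349, with pairs of 1 endotoxemic and 1 control library giving 0.27 to 0.382, beside a median of 0.01 over all rows. Both endotoxemic libraries lay above both controls for 34 members (61.8%) and below for 11 (20.0%), beside 37.9% and 39.2% of all rows. At an unadjusted p below 0.05 there were 22 members (40.0%), beside 51.3% of all rows. Leaving out any 1 of the 6 libraries kept 8 of the 17 calls, those of Eif1a, Eif2ak2, Eif6, Eif4e3, Eif4a1, Eif2s1, Eif4ebp2 and Eif4a2. Without either LGK974 library 20 members rose and 7 fell, beside 24.4% of all rows higher and 26.8% to 26.9% lower. The added calls were in both fits Eef1b2, Eif4a3, Eef1e1, Eif3e, Eif2b4, Eif3g and Eif1b, higher, and Eef2, Eif3h and Eef1a1, lower.

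In the LGK974 livers against the endotoxemic livers, no member passed the threshold in either direction. Across all rows, 2.8% rose and 2.82% fell. At an unadjusted p below 0.05 there were 10 members (18.2%), beside 22.9% of all rows. Both LGK974 libraries lay above both endotoxemic ones for 14 members (25.5%) and below for 14, beside 26.5% and 26% of all rows. DESeq2 called 1 higher, Eif4ebp3, and 1 lower, Eif2ak2, beside 600 and 627 of the 11962 rows to which it gave an adjusted p. The median log2 fold change of the members was 0.01, beside 0.031 over all rows. Without LGK974 library 1 there were 3 members higher and 3 lower, beside 1175 and 1067 of 13080 rows, and without LGK974 library 2 there was 1 of each, beside 621 and 623 of 13057 rows. In those fits the lone LGK974 library is assumed to vary like the other groups. A missing call here does not show equal levels.

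Against control, 16 members rose in the LGK974 livers and 4 fell, which are 29.1% and 7.3% of the members beside 16.4% and 17.7% of all rows. Both LGK974 libraries lay above both controls for 32 members (58.2%) and below for 10 (18.2%), beside 33.7% and 34.3% of all rows, and 29 members (52.7%) had an unadjusted p below 0.05, beside 44.6%. The members' median was 0.405, beside 0.018 over all rows. Without control library 1, 6 rose and 1 fell, beside 1041 and 1331 of the 13296 rows in that fit, and 7 of the 20 calls held whichever library was left out. This comparison shares its control libraries with the first one, so the 2 sets of calls are not independent of each other.

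**Figure D1:**
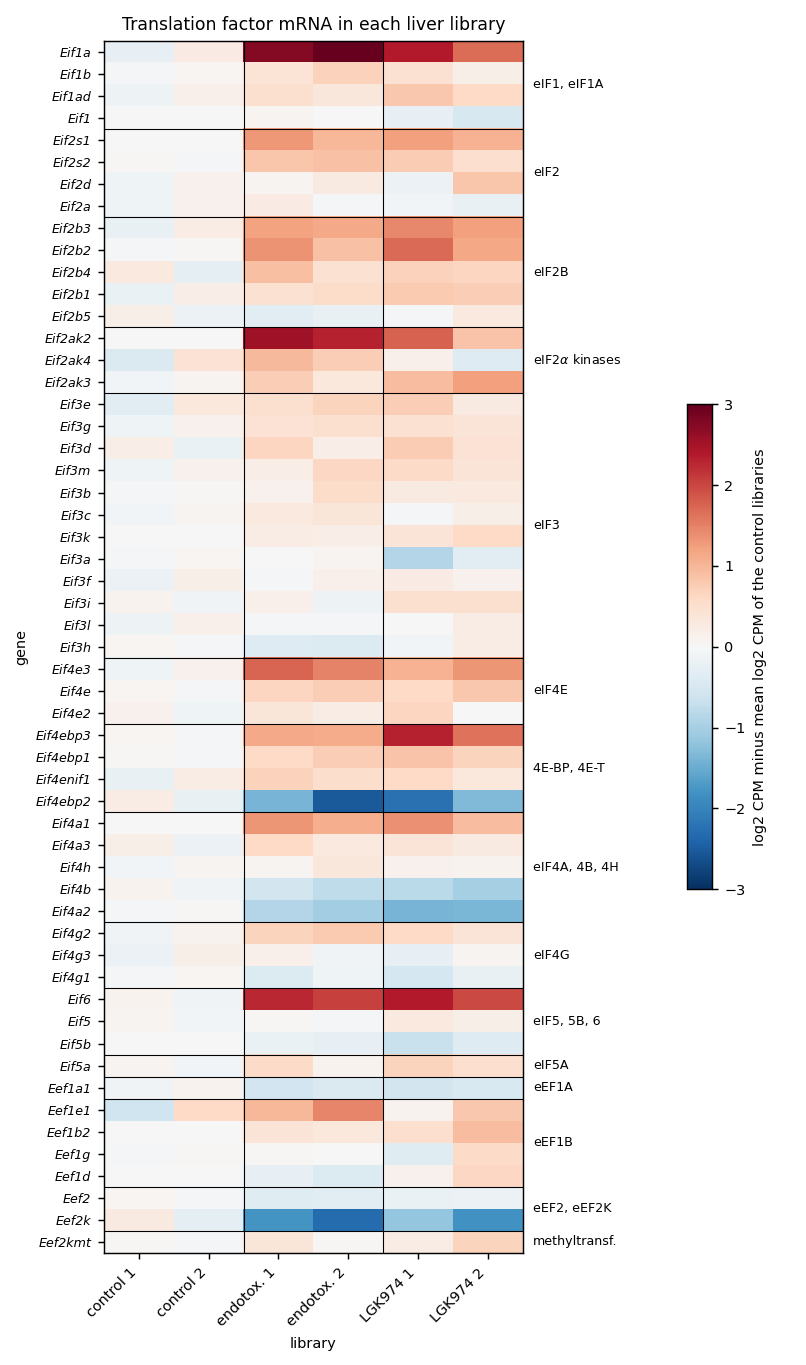
Level of each of the 55 tested members in the 6 distinct libraries, as log2 CPM minus the mean log2 CPM of the 2 control libraries, with genes in rows ordered by role and libraries in columns. Eif1a, Eif2ak2 and Eif6 are the darkest red in the endotoxemic columns, Eif4ebp2 and Eef2k the darkest blue, and the 12 eIF3 subunits stay pale in those columns.

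Start codon recognition was led by Eif1a, which encodes the autosomal copy of eIF1A, a factor that helps the small subunit scan to the start codon (chr18:46597701-46616456, mm10). Its levels were 26.6 and 37.0 CPM in control, 211 and 250 CPM in endotoxemic and 162 and 101 CPM in LGK974 libraries. The groups did not overlap, with the LGK974 livers between the others. It rose by 2.85 ± 0.29 on the log2 scale in endotoxemic livers (SE, n = 2 libraries a group, edgeR adjusted p = 6.7e-05) and by 2.04 ± 0.28 in LGK974 livers against control (edgeR adjusted p = 0.000563), while the difference between LGK974 and endotoxemic livers was -0.81 ± 0.27 (edgeR adjusted p = 0.112). That difference was -1.19 and passed without LGK974 library 1 (edgeR adjusted p = 0.00278), and was -0.51 without library 2 (0.175). Eif1, the core factor of start codon selection, was at 290 and 290 CPM in control, 309 and 294 CPM in endotoxemic and 244 and 207 CPM in LGK974 libraries, the lowest of the 6. LGK974 and endotoxemic livers differed by -0.42 ± 0.18 (edgeR adjusted p = 0.214), or by -0.54 without LGK974 library 1 (0.0496) and -0.31 without library 2 (0.302). Eif1ad, whose product resembles eIF1A, passed the threshold against control in LGK974 livers, at 0.69 ± 0.21 (edgeR adjusted p = 0.0336), and lost the call without LGK974 library 1 or any 1 of the 4 control and endotoxemic libraries (edgeR adjusted p = 0.0562 to 0.234).

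Of the 3 subunits of eIF2, the carrier of initiator tRNA, the 2 encoded on autosomes rose in endotoxemic livers, and the X-linked gamma subunit Eif2s3x, which is no member, did not pass the threshold there (log2 fold change 0.28, edgeR adjusted p = 0.252) and gave -0.86 in LGK974 livers against control (edgeR adjusted p = 0.00791), the group whose sex-linked transcripts differ. Eif2s1 encodes the alpha subunit that the stress kinases phosphorylate, and it was at 30.6 and 29.7 CPM in control, 73.9 and 60.2 CPM in endotoxemic and 70.3 and 62.7 CPM in LGK974 libraries. All 4 libraries from LPS-treated mice were above both controls. The rise was 1.15 ± 0.20 in endotoxemic livers (edgeR adjusted p = 0.00167) and 1.14 ± 0.20 in LGK974 livers (edgeR adjusted p = 0.00236), and the 2 treated groups differed by -0.01 ± 0.20. Eif2s2, the beta subunit, was at 304 and 294 CPM in control, 531 and 548 CPM in endotoxemic and 509 and 426 CPM in LGK974 libraries. It rose by 0.85 ± 0.19 in endotoxemic livers (edgeR adjusted p = 0.00576), a call lost without either control library (0.0563 and 0.0635). In LGK974 livers against control it rose by 0.65 ± 0.19 (edgeR adjusted p = 0.0258), lost without any 1 control or endotoxemic library (0.0527 to 0.162). Eif2a and Eif2d, which encode alternative initiator tRNA carriers, gave 0.10 ± 0.25 and 0.17 ± 0.34 and did not pass the threshold.

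The 5 subunits of eIF2B, which reloads eIF2 with GTP and is the target of the stress signal, were all tested, and 2 rose in endotoxemic livers. Eif2b2 was at 18.2 and 19.2 CPM in control, 47.7 and 34.1 CPM in endotoxemic and 60.3 and 41.9 CPM in LGK974 libraries. It rose by 1.13 ± 0.26 in endotoxemic livers (edgeR adjusted p = 0.00687), a call lost without endotoxemic library 1 (0.0574) or control library 1 (0.0599). Eif2b3 was at 4.36 and 5.88 CPM in control, 11.8 and 11.2 CPM in endotoxemic and 13.74 and 11.98 CPM in LGK974 libraries. It rose by 1.16 ± 0.29 in endotoxemic livers (edgeR adjusted p = 0.0109), and its p was between 0.0521 and 0.0879 without control library 1 or either endotoxemic library. Eif2b1, Eif2b4 and Eif2b5 gave log2 fold changes of 0.48, 0.68 and -0.28 in endotoxemic livers and did not pass. Eif2b4 was close to the threshold (edgeR adjusted p = 0.0565) and passed it without LGK974 library 1 (0.021) or 2 (0.0223), without a filter, with total count or upper-quartile scaling and with the replicate block. In LGK974 livers against control, Eif2b2 rose by 1.45 ± 0.26, Eif2b3 by 1.32 ± 0.29 and Eif2b1 by 0.75 ± 0.23. The Eif2b3 call (edgeR adjusted p = 0.00711) was lost without control library 1 (0.0698). The Eif2b1 call (edgeR adjusted p = 0.0318) was lost without any 1 control or endotoxemic library, at 0.0512 to 0.232.

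Among the kinases of eIF2 alpha, Eif2ak2 stood out. It encodes PKR, the interferon-inducible kinase that is switched on by double-stranded RNA (chr17:78852564-78882573, mm10). Its levels were 8.07 and 7.97 CPM in control, 46.8 and 40.0 CPM in endotoxemic and 27.5 and 14.6 CPM in LGK974 libraries, again with the LGK974 group between the others and without overlap. The rise was 2.43 ± 0.32 in endotoxemic livers (edgeR adjusted p = 0.000322) and 1.39 ± 0.31 in LGK974 livers against control (edgeR adjusted p = 0.00845), the latter lost without control library 1 (0.0622) or 2 (0.0636). Between LGK974 and endotoxemic livers the log2 difference was -1.05 ± 0.30, which missed the threshold with edgeR (adjusted p = 0.0759) and passed it with DESeq2 (0.0304) or without LGK974 library 1 (-1.57, edgeR adjusted p = 0.000935), and was -0.66 without LGK974 library 2 (0.104). Eif2ak3 encodes PERK, the kinase of the unfolded protein response, and was at 3.81 and 4.25 CPM in control, 6.66 and 5.01 CPM in endotoxemic and 7.62 and 9.47 CPM in LGK974 libraries. Its difference in endotoxemic livers was 0.53 ± 0.34 (edgeR adjusted p = 0.24), and it passed in LGK974 livers against control, at 1.08 ± 0.34 (edgeR adjusted p = 0.0339), a call lost without LGK974 library 2 or any 1 control or endotoxemic library (0.0515 to 0.159). Eif2ak4, the amino acid sensor GCN2, was at 3.81 and 6.93 CPM in control, 10.2 and 8.53 CPM in endotoxemic and 5.66 and 3.92 CPM in LGK974 libraries. It gave 0.79 ± 0.39 in endotoxemic livers against control (edgeR adjusted p = 0.131), -0.96 ± 0.39 in LGK974 against endotoxemic livers (edgeR adjusted p = 0.181) and -0.18 ± 0.39 in LGK974 livers against control (edgeR adjusted p = 0.76), none past the threshold.

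The fourth kinase, Eif2ak1, the heme-regulated HRI, could not be read from the row that carries its symbol. That row stands between Ccdc3 and Cdc123 on chromosome 2, whereas the gene is at chr5:143817788-143904251 (mm10). As deposited, the row had 467 and 667 counts in control, 40 and 40 in endotoxemic and 100 and 161 in LGK974 libraries, and its log2 fold change in endotoxemic livers was -3.33 ± 0.28 (edgeR adjusted p = 2.5e-05). The row at the place of the gene, which carries the symbol Itgb2, had 21 and 63 counts in control, 339 and 417 in endotoxemic and 491 and 481 in LGK974 libraries. Its endotoxemic and LGK974 counts lay near the control counts of the Eif2ak1 row, and its control counts did not. With control counts kept under their symbol and the other counts taken from the row at the genomic place, the levels were 43.6 and 43.9 CPM in control, 37.1 and 44.6 CPM in endotoxemic and 37.2 and 32.7 CPM in LGK974 libraries. The log2 fold change was then -0.10 ± 0.20 in endotoxemic livers (edgeR adjusted p = 0.72), -0.23 ± 0.20 between LGK974 and endotoxemic livers (0.537) and -0.32 ± 0.20 in LGK974 livers against control (0.24). Over the 442 out-of-order rows with a match, the summed control and summed endotoxemic counts had a Spearman rank correlation across rows of 0.056 as deposited and 0.807 by genomic place, beside 0.931 over rows in order. These are descriptions across rows, which are not independent replicates. Not every match was close. The row labelled Eif2ak1 stands at the place of Camk1d, whose own row had 1249 and 1660 counts in control. At that place the endotoxemic libraries had 40 and 40 counts and the LGK974 libraries 100 and 161.

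**Figure D2:**
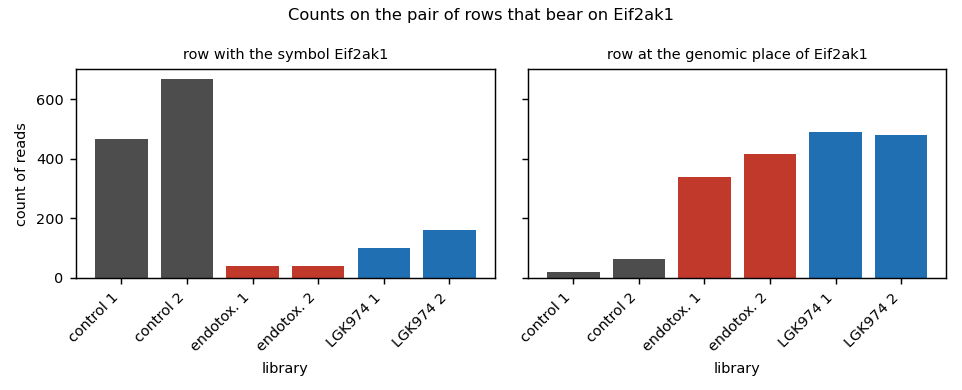
Counts of reads in the 6 distinct libraries on the row with the symbol Eif2ak1 (left) and on the row labelled Itgb2 that stands at the place of the gene (right); each bar is 1 library. The left row falls from 467 and 667 in control to 40 in both endotoxemic libraries, and the right row rises from 21 and 63 to 339 and 417.

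The other member out of order, Eif3j2, encodes a near-identical copy of the eIF3 subunit of Eif3j1. Its row stood beside Eif3j1 on chromosome 2, while the annotation places it at chr18:43475418-43477796 (mm10). It had 520 and 752 counts in control, 715 and 693 in endotoxemic and 654 and 708 in LGK974 libraries. These are 48.26 and 49.15 CPM in control, 78.02 and 73.87 CPM in endotoxemic and 49.37 and 47.91 CPM in LGK974 libraries. Its log2 fold change in endotoxemic livers was 0.64 ± 0.18 (edgeR adjusted p = 0.0189). That call was lost without any 1 control or endotoxemic library, at 0.0839 to 0.126. LGK974 livers differed from endotoxemic ones by -0.64 ± 0.18, which missed the threshold with edgeR (adjusted p = 0.0738) and passed it with DESeq2 (0.034). Against control the LGK974 livers gave -0.00 ± 0.18 (edgeR adjusted p = 0.994). Eif3j1 itself had at most 3 counts in a library, and how the counting split reads between the copies was not tested, so the values are uncertain for either gene.

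The eIF3 complex, the large scaffold that holds the small subunit and recruits mRNA, had 12 tested members in order and none passed the threshold in any of the 3 comparisons. Their log2 fold changes in endotoxemic livers ran from -0.39 for Eif3h to 0.55 for Eif3e, with a median of 0.269 and 10 of 12 above 0. Without LGK974 library 1 or 2, Eif3e (0.55, edgeR adjusted p = 0.0301 or 0.0316) and Eif3g (0.45, 0.0337 or 0.0348) rose and Eif3h fell (-0.39, 0.0432 or 0.0449) in endotoxemic livers. Eif3d, Eif3i and Eif3k passed in LGK974 livers against control with upper-quartile scaling, and Eif3d also with the replicate block and without a filter. Eif3a, the largest subunit, was at 297 and 322 CPM in control and 311 and 329 CPM in endotoxemic libraries but at 170 and 250 CPM in the LGK974 libraries. The difference between LGK974 and endotoxemic livers was -0.61 ± 0.22 (edgeR adjusted p = 0.141). It was -0.92 and passed without LGK974 library 2 (edgeR adjusted p = 0.00663), and was -0.36 without library 1 (0.185). Eif3h gave 0.46 ± 0.19 in the same comparison (edgeR adjusted p = 0.191), or 0.61 without LGK974 library 1, past the threshold (0.0333), and 0.31 without library 2 (0.329).

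Of the 4 members of the eIF4E family, which binds the cap, 3 were tested and 2 rose in endotoxemic livers. Eif4e encodes the main cap-binding protein, and it was at 38.7 and 35.8 CPM in control, 58.2 and 62.2 CPM in endotoxemic and 56.2 and 65.0 CPM in LGK974 libraries. The difference was 0.69 ± 0.19 in endotoxemic livers (edgeR adjusted p = 0.017) and 0.70 ± 0.19 in LGK974 livers against control (edgeR adjusted p = 0.0196), and the treated groups differed by 0.01 ± 0.19. The first call was lost without any 1 control or endotoxemic library (0.0579 to 0.122) and the second without control library 1 (0.103) or 2 (0.142). Eif4e3 encodes a less common cap-binding paralog, and its levels were 7.33 and 8.82 CPM in control, 27.1 and 22.5 CPM in endotoxemic and 16.5 and 20.2 CPM in LGK974 libraries. It rose by 1.61 ± 0.26 in endotoxemic livers (edgeR adjusted p = 0.00101) and by 1.18 ± 0.25 in LGK974 livers (edgeR adjusted p = 0.00684), the latter at 0.0723 without control library 1. Eif4e2, a paralog linked to translational repression, gave 0.29 ± 0.24 and did not pass.

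The inhibitors of the cap-binding step went in opposite directions. Eif4ebp2 encodes 4E-BP2 (chr10:61428491-61452661, mm10), and it was at 182 and 132 CPM in control, 59.2 and 27.1 CPM in endotoxemic and 32.6 and 61.6 CPM in LGK974 libraries. The treated libraries were all below the controls, and the 2 endotoxemic libraries differed more for this gene than for any other member, by 1.13 on the log2 scale. It fell by 1.86 ± 0.41 in endotoxemic livers (edgeR adjusted p = 0.00549) and by 1.74 ± 0.40 in LGK974 livers (edgeR adjusted p = 0.00966, or 0.0728 without control library 1).

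Eif4ebp1, which encodes 4E-BP1, moved the other way, from 47.6 and 44.8 CPM in control to 69.5 and 76.8 CPM in endotoxemic and 83.5 and 73.4 CPM in LGK974 libraries. The rise was 0.66 ± 0.19 (edgeR adjusted p = 0.0195) in endotoxemic livers, a call lost without any 1 control or endotoxemic library (0.0573 to 0.131), and 0.76 ± 0.19 (edgeR adjusted p = 0.0129) in LGK974 livers, lost without control library 1 (0.0865) or 2 (0.109). The ratio of Eif4ebp1 to Eif4ebp2 counts within a library, a measure chosen after the values were seen that no scaling between libraries alters, was 0.261 and 0.34 in control, 1.17 and 2.83 in endotoxemic and 2.56 and 1.19 in LGK974 libraries.

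Eif4ebp3, the third binding protein, was the member with the largest positive difference between LGK974 and endotoxemic livers. Its levels were 43.8 and 40.7 CPM in control, 92.2 and 91.2 CPM in endotoxemic and 210 and 130 CPM in LGK974 libraries, in 3 steps that did not overlap. It rose by 1.12 ± 0.24 in endotoxemic livers (edgeR adjusted p = 0.00552, or 0.055 without control library 2) and by 2.01 ± 0.25 in LGK974 livers against control (edgeR adjusted p = 0.000313). The step from endotoxemic to LGK974 livers was 0.89 ± 0.24 and missed the threshold with edgeR (adjusted p = 0.0656) but not with DESeq2 (0.0239). It was 1.19 and passed without LGK974 library 2 (edgeR adjusted p = 0.00105), and was 0.51 without library 1 (0.0698). The exons of Eif4ebp3 overlap those of AC115631.1 on the same strand, so its reads cannot be assigned to it with certainty. Same-strand exon overlaps are also annotated for Eif4e3 (Gm20696), Eif4g2 (Gm23262), Eef1b2 (Gm27390), Eif4e (Mir1956), Eif4a1 and Eif4a2, with the same limit. Eif4enif1, which encodes the eIF4E transporter 4E-T, gave 0.59 ± 0.27 and did not pass.

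**Figure D3:**
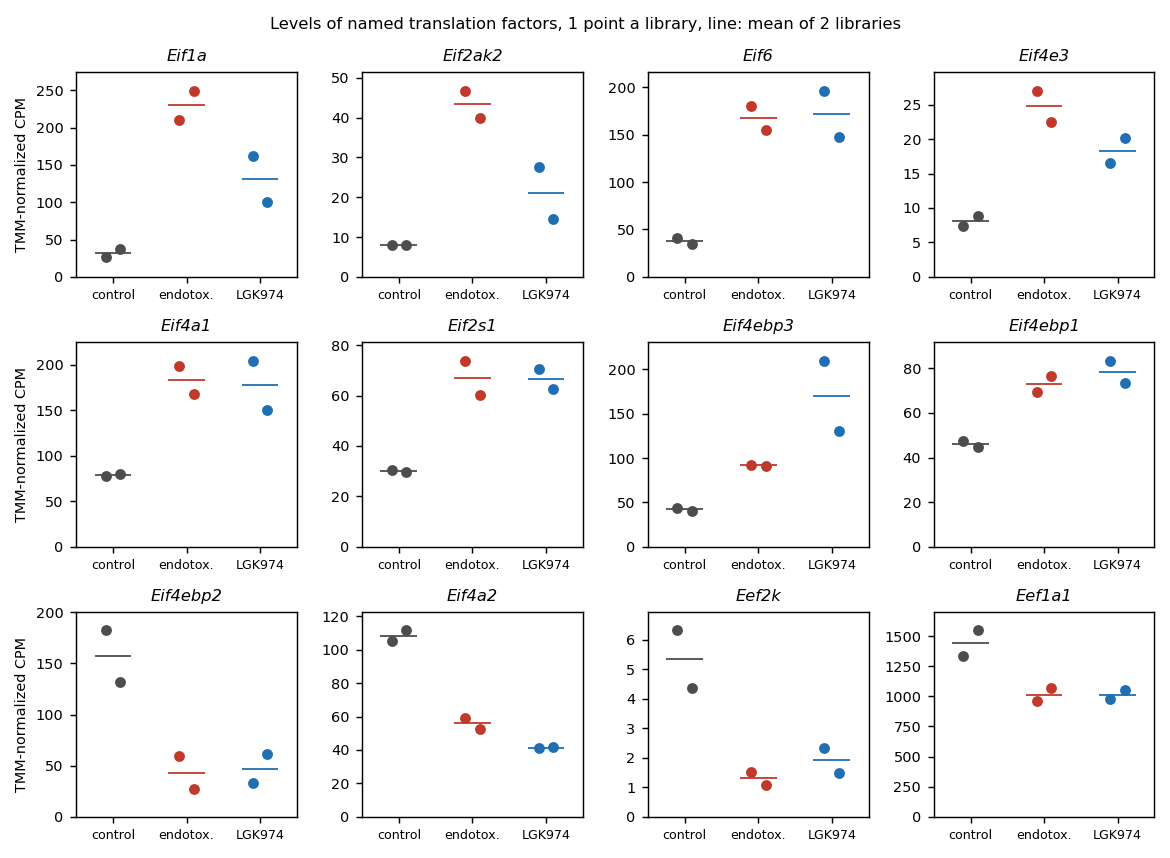
TMM-normalized CPM of 12 members in the 3 groups on linear axes that start at 0; each point is 1 library and each line the mean of 2. Eif1a and Eif2ak2 are highest in the endotoxemic livers with the LGK974 libraries in between, Eif6, Eif4a1 and Eif2s1 are alike in both treated groups, and Eif4ebp2, Eif4a2 and Eef2k are lower in all 4 treated libraries than in the controls.

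The helicases that unwind the mRNA leader included a pair of paralogs that moved in opposite directions. Eif4a1, the main eIF4A helicase (chr11:69666936-69672423, mm10), was at 77.9 and 79.7 CPM in control, 199 and 168 CPM in endotoxemic and 204 and 150 CPM in LGK974 libraries. Eif4a2, its close paralog (chr16:23107444-23114136, mm10), was at 105 and 112 CPM in control, 59.1 and 52.7 CPM in endotoxemic and 41.1 and 41.8 CPM in LGK974 libraries. Neither gene overlapped between control and treated libraries. Eif4a1 rose by 1.22 ± 0.21 in endotoxemic livers (edgeR adjusted p = 0.00179) and by 1.17 ± 0.21 in LGK974 livers (edgeR adjusted p = 0.00302). Eif4a2 fell by 0.96 ± 0.18 (edgeR adjusted p = 0.00297) and by 1.39 ± 0.19 (edgeR adjusted p = 0.000514). Within a library, the ratio of Eif4a1 to Eif4a2 counts was 0.741 and 0.714 in control, 3.36 and 3.19 in endotoxemic and 4.97 and 3.58 in LGK974 libraries, higher in all 4 treated libraries than in both controls. Both genes host small nucleolar RNAs in their introns, and whether the counting separated these is not given in the sources used here.

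Of the helicase partners, Eif4b, which stimulates eIF4A, was at 106 and 90.8 CPM in control, 66.6 and 57.5 CPM in endotoxemic and 56.0 and 49.6 CPM in LGK974 libraries. It fell by 0.67 ± 0.20 in endotoxemic livers (edgeR adjusted p = 0.0227), a call lost without any 1 control or endotoxemic library (0.0633 to 0.17), and by 0.90 ± 0.20 in LGK974 livers (edgeR adjusted p = 0.00743, or 0.0816 without control library 1). Eif4h, a related stimulator, and Eif4a3, the helicase of the exon junction complex, gave 0.22 ± 0.19 and 0.45 ± 0.21 and did not pass.

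Of the scaffolds, Eif4g2, which encodes DAP5 and lacks the eIF4E-binding site, rose from 369 and 433 CPM in control to 639 and 692 CPM in endotoxemic libraries, a difference of 0.73 ± 0.19 (edgeR adjusted p = 0.0139) that was lost without endotoxemic library 2 or either control library (0.057 to 0.144). In LGK974 libraries it was at 608 and 525 CPM and its difference from control was 0.50 ± 0.19 (edgeR adjusted p = 0.0748, or 0.0132 without LGK974 library 2). Eif4g1, the main scaffold that joins cap and ribosome, was at 316 and 345 CPM in control and 248 and 301 CPM in endotoxemic libraries and gave -0.27 ± 0.20. The difference between the responses of the 2 scaffolds was not tested.

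At subunit joining, Eif6 rose the most. Its product keeps the large subunit from joining too early and takes part in the making of that subunit (chr2:155819832-155826925, mm10). The levels were 40.6 and 34.6 CPM in control, 181 and 155 CPM in endotoxemic and 197 and 148 CPM in LGK974 libraries, with both treated groups in 1 range. It rose by 2.16 ± 0.22 in endotoxemic livers (edgeR adjusted p = 7.9e-05) and by 2.20 ± 0.22 in LGK974 livers (edgeR adjusted p = 0.0001), and the treated groups differed by 0.04 ± 0.21 (edgeR adjusted p = 0.94). Eif5, the GTPase activator of eIF2, and Eif5b, the joining GTPase, gave 0.00 ± 0.18 and -0.22 ± 0.19 in endotoxemic livers. Eif5a, whose product carries the modified residue hypusine and aids elongation through difficult motifs, was at 178 and 161 CPM in control, 250 and 181 CPM in endotoxemic and 268 and 238 CPM in LGK974 libraries. It gave 0.35 ± 0.21 in endotoxemic livers (edgeR adjusted p = 0.214) and 0.58 ± 0.21 in LGK974 livers against control (edgeR adjusted p = 0.0627), or 0.67 without LGK974 library 2. The difference of LGK974 livers from control passed with the replicate block (edgeR adjusted p = 0.0418), without a filter (0.0353) and with upper-quartile scaling (0.0329).

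Of the elongation factors, Eef1a1, which delivers aminoacyl-tRNA, was at 1334 and 1546 CPM in control, 962 and 1065 CPM in endotoxemic and 974 and 1054 CPM in LGK974 libraries. The treated libraries were all below the controls, yet the difference of -0.51 ± 0.19 in endotoxemic livers missed the threshold with edgeR (adjusted p = 0.055) and passed it with DESeq2 (0.0428), with the replicate block (0.0472) and without LGK974 library 1 (0.00781) or 2 (0.00867). Eef1a1 has near-identical copies elsewhere in the genome, so its counts are uncertain. Eef2, the translocase, was at 913 and 854 CPM in control, 681 and 701 CPM in endotoxemic and 772 and 785 CPM in LGK974 libraries, with -0.35 ± 0.18 in endotoxemic livers (edgeR adjusted p = 0.137, or 0.0409 and 0.0422 without LGK974 library 1 and 2).

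Eef2k, the kinase that inactivates eEF2, had 10 to 68 counts in each library. It was at 6.31 and 4.38 CPM in control, 1.53 and 1.07 CPM in endotoxemic and 2.34 and 1.49 CPM in LGK974 libraries, and the endotoxemic values rest on 14 and 10 counts. It fell by 2.03 ± 0.52 in endotoxemic livers (edgeR adjusted p = 0.0121), a call lost without control library 1 or either endotoxemic library (0.0546 to 0.0928), and by 1.48 ± 0.49 in LGK974 livers (edgeR adjusted p = 0.0433), lost without LGK974 library 2 or any 1 control or endotoxemic library (0.0669 to 0.24). Of the exchange factors that reload eEF1A, Eef1b2 rose in LGK974 livers against control, by 0.73 ± 0.20 (edgeR adjusted p = 0.021, or 0.124 and 0.146 without 1 control library). In endotoxemic livers it gave 0.35 ± 0.20 (edgeR adjusted p = 0.188, or 0.0472 without either LGK974 library). Eef1d, a second exchange subunit that shares exon sequence with Naprt on its strand, was at 54.5 and 48.6 CPM in endotoxemic and 70.6 and 99.7 CPM in LGK974 libraries, a difference of 0.72 ± 0.22 that missed the threshold (edgeR adjusted p = 0.0884). It was 0.95 and passed without LGK974 library 1 (edgeR adjusted p = 0.00313), and was 0.45 without library 2 (0.162).

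**Figure D4:**
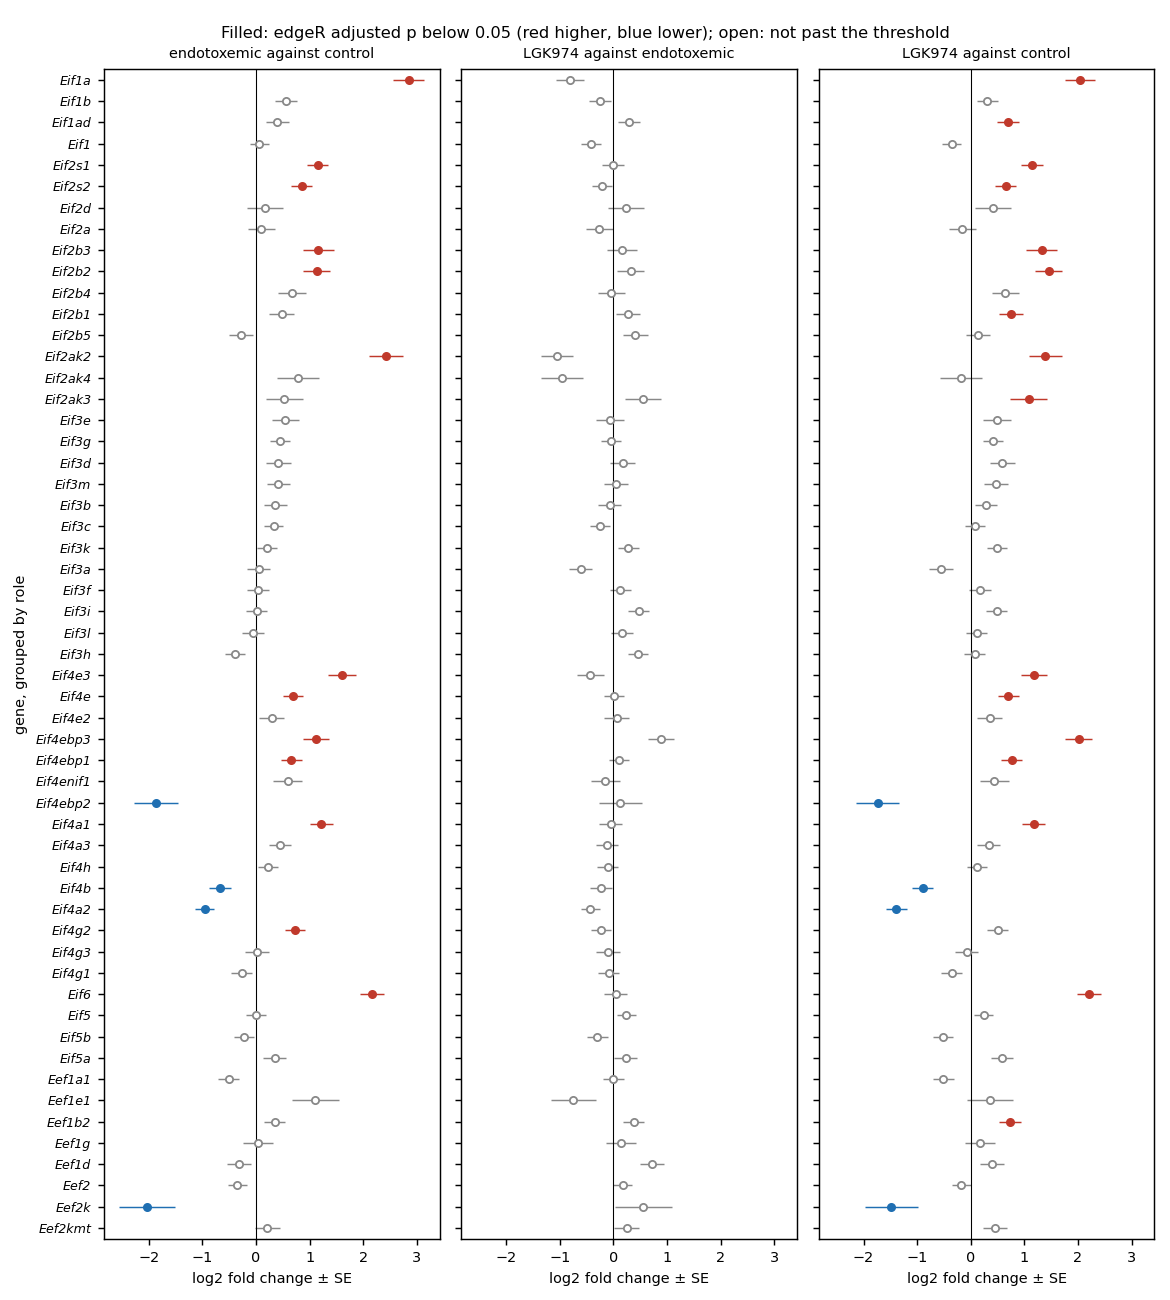
Log2 fold change of each of the 55 tested members with its SE (bars) in the 3 comparisons, in the same gene order as the plot of levels by role; filled points have an edgeR adjusted p below 0.05 (red higher, blue lower) and open points do not. There are 13 red and 4 blue points for endotoxemic against control, 0 for LGK974 against endotoxemic, and 16 red and 4 blue for LGK974 against control.

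Genes that work beside these factors were read from fixed lists, with rows out of order left out. Their counts for endotoxemic against control stand beside the 20.4% of all rows that rose and the 23% that fell. Of 21 cytosolic aminoacyl-tRNA synthetase genes tested, which charge tRNAs with amino acids, 14 rose in endotoxemic livers and 0 fell. Wars, the interferon-inducible tryptophanyl-tRNA synthetase, went from 2.78 and 6.93 CPM in control to 71.2 and 75.8 CPM in endotoxemic and 46.7 and 23.4 CPM in LGK974 libraries, a rise of 3.89 ± 0.45 (edgeR adjusted p = 0.000153) in endotoxemic livers. Nars rose by 1.50 ± 0.19. Between LGK974 and endotoxemic livers, where 2.8% of all rows rose and 2.82% fell, 0 of the 21 were higher and 1 was lower, Eprs, at -0.77 ± 0.19 (edgeR adjusted p = 0.0471).

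Of 7 termination and ribosome rescue genes 4 rose in endotoxemic livers, with Etf1, the release factor that reads stop codons, at 1.20 ± 0.26 and Pelo, which frees stalled ribosomes, at 1.18 ± 0.22. Of 9 mitochondrial translation factors 0 rose and 3 fell, with Gfm1 at -0.84 ± 0.26 and Tufm at -0.78 ± 0.24, both elongation factors of the organelle. Of 8 poly(A)-binding proteins and their regulators, 1 passed, Larp1, the mTORC1-controlled repressor of ribosomal protein mRNAs, at -0.94 ± 0.24 (edgeR adjusted p = 0.0124). Of 8 genes of hypusine and polyamine metabolism 3 rose, led by Odc1, the first enzyme of polyamine synthesis, at 2.09 ± 0.21 (edgeR adjusted p = 7.7e-05), and Sat1, which acetylates polyamines, at 1.38 ± 0.47 (0.0385). The median log2 fold change of these 8 genes was -0.087.

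Downstream of eIF2 phosphorylation, 10 of 15 integrated stress response targets tested rose in endotoxemic livers and 2 fell. Slc7a11, the cystine transporter, was at 0.0928 and 0 CPM in control, 3.16 and 4.58 CPM in endotoxemic and 0.83 and 0.812 CPM in LGK974 libraries and passed in endotoxemic livers (edgeR adjusted p = 0.000875). The LGK974 libraries lay below the endotoxemic ones, a difference that missed the threshold (edgeR adjusted p = 0.0854). Asns, the asparagine synthetase that ATF4 induces, was at 0 and 0.523 CPM in control, 13.0 and 14.4 CPM in endotoxemic and 13.1 and 16.5 CPM in LGK974 libraries. Vldlr, a lipoprotein receptor, and Shmt2, a mitochondrial enzyme of serine use, fell, with log2 fold changes of -4.27 ± 0.43 and -1.79 ± 0.20. In LGK974 against endotoxemic livers 0 of the 15 targets were higher and 2 were lower, beside 2.8% and 2.82% of all rows. Ppp1r15a, the stress-induced subunit of the eIF2 alpha phosphatase, went from 26.6 and 27.4 CPM to 11.5 and 13.5 CPM, a log2 difference of -1.11 ± 0.23 (edgeR adjusted p = 0.0278), and Atf3, a stress-induced transcription factor, had a log2 difference of -2.46 ± 0.56 (edgeR adjusted p = 0.0385). The control level of Ppp1r15a was 12.5 and 13.7 CPM, which overlapped that of the LGK974 libraries.

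Upstream of the cap-binding step, 2 of 17 genes of mTORC1 and MAP kinase control rose in endotoxemic livers and 5 fell, beside 20.4% and 23% of all rows. Deptor, an inhibitor of mTOR, was at 408 and 338 CPM in control, 46.9 and 39.3 CPM in endotoxemic and 59.0 and 97.8 CPM in LGK974 libraries, and fell by 3.11 ± 0.28 (edgeR adjusted p = 3.6e-05). Tsc1, another brake on mTORC1, fell by 1.39 ± 0.28. Rps6ka3 and Mknk1, kinases downstream of MAP kinases, rose by 1.74 ± 0.26 and 0.93 ± 0.27, and the latter encodes a kinase of eIF4E itself. These counts describe the lists and were not tested as sets.

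In LGK974 livers against control, where 16.4% of all rows rose and 17.7% fell, 11 of the 21 synthetases, 4 of the 7 termination and 3 of the 8 polyamine genes rose and none of these fell. Wars rose by 2.82 ± 0.44 and Yars, the tyrosyl-tRNA synthetase, by 1.18 ± 0.20, Etf1 by 1.09 ± 0.26 and Pelo by 1.01 ± 0.22, and Odc1 by 1.44 ± 0.21 and Sat1, an X-linked gene, by 1.66 ± 0.47. Sat1 was at 37.9 and 34.8 CPM in control and at 179 and 51.5 CPM in the LGK974 libraries, so that the size of its rise rests mostly on library 1. Of the 9 mitochondrial factors 2 fell, Tufm (-1.42 ± 0.24) and Gfm2 (-1.08 ± 0.26), and of the poly(A)-binding list Paip1 rose (0.59 ± 0.18) and Larp1 fell (-1.33 ± 0.24). Of 15 stress response targets 6 rose, among them Asns and Psat1, an enzyme of serine synthesis (4.16 ± 0.56), and 3 fell, among them Vldlr (-4.02 ± 0.41) and Shmt2 (-2.02 ± 0.20). Of the 17 mTORC1 and MAP kinase genes 3 rose and 4 fell, with the X-linked Rps6ka3 at 1.17 ± 0.26, Mknk1 at 0.98 ± 0.27, Deptor at -2.25 ± 0.27 and Rps6kb2, an S6 kinase gene, at -1.76 ± 0.60 (edgeR adjusted p = 0.0497).

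**Figure D5:**
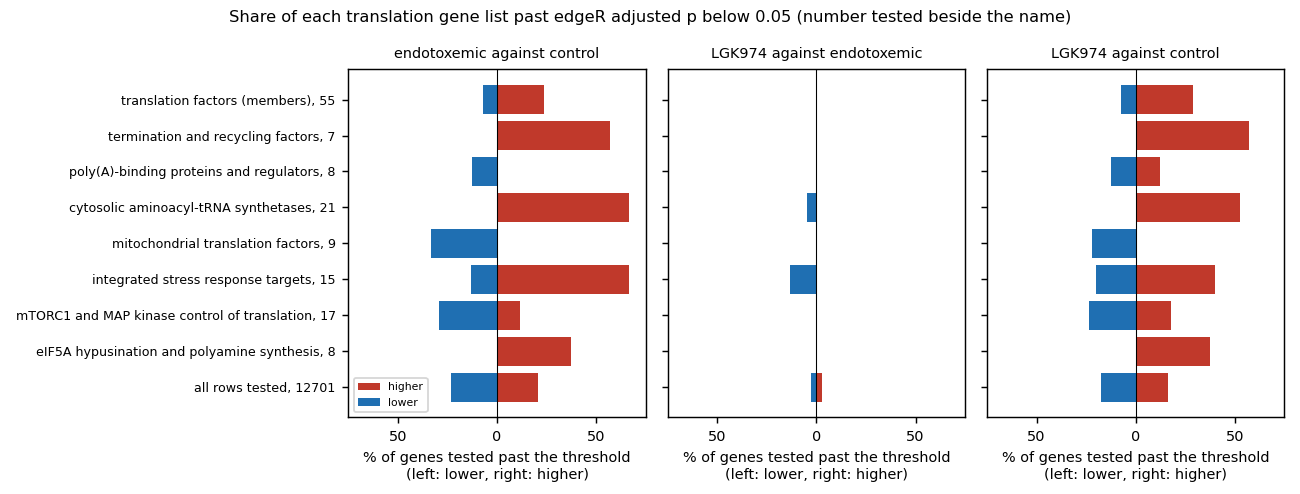
Share of each translation gene list past edgeR adjusted p below 0.05 in the 3 comparisons, as a percent of the genes tested, with falls to the left of 0 and rises to the right; the number tested follows each name. The synthetases (14 of 21) and stress response targets (10 of 15) reach farthest right for endotoxemic against control, and the mitochondrial factors (3 of 9) farthest left.

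Marker mRNAs of several cell types differed between the groups. Hepatocyte markers, the check on the labelled tissue, were abundant in every library, with a summed 116400 and 84030 CPM in control, 53080 and 35990 CPM in endotoxemic and 40350 and 40070 CPM in LGK974 libraries, and 5 of 6 tested in order fell in endotoxemic livers. The 4 neutrophil markers tested in order all rose, and the summed level went from 1.76 and 1.89 CPM to 47.5 and 51.1 CPM in endotoxemic libraries, with Ngp and Ltf at 0 in both controls. Of 6 erythroid markers 5 rose, from a summed 2741 and 2962 CPM to 6567 and 7701 CPM in endotoxemic libraries and 4170 and 2711 CPM in LGK974 libraries. Of 5 Kupffer cell markers 1 rose and 2 fell, of 6 sinusoidal endothelial markers 1 rose and 3 fell, and of 5 stellate cell markers 1 rose and 4 fell. Of 2 monocyte markers 1 rose, as did 1 of 3 T and NK cell markers. Of 4 cholangiocyte markers 1 fell, as did 1 of 2 skeletal muscle markers. None of 2 B cell markers and 1 pancreatic acinar marker passed. Over all rows 20.4% rose and 23% fell in endotoxemic livers. In bulk RNA fewer cells of a type and less RNA per cell cannot be told apart, and the part of these shifts in the member changes was not tested.

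The promoters of the members were searched for 4 motifs. RefSeq sequences (GRCm38.p6) gave the 250 bases before 61 start sites of 46 members. The motifs, chosen after the values were seen, were matched on both strands. The windows included none of Eif1a, Eif6, Eif4e3, Eif2b3, Eif4ebp3, Eif4g2 and Eif4ebp1, which all rose in endotoxemic livers. Whether these genes carry any of the 4 motifs was not tested. The E-box CACGTG, the site of the MYC and USF families, was in 13 of 61 member promoters (21.31%), beside 8.15% of promoters of tested rows and 6.02% of all 32851 promoters. Windows of 1 gene can overlap, so that 1 E-box of Eif5a was counted in 2 of its windows. The interferon-stimulated response element, searched as TTTC and TTTC with 2 bases of any kind between them, was in 3.28% of member promoters and 2.98% of all, the NF-kB site, searched as GGG and TTTCC with 2 bases between them, in 1.64% and 1.41%, and the ATF4 element TGATGNAA in 1.64% and 3.45%. Of the 11 members found with an E-box among those searched, Eif4e and Eif4a1 rose and Eef2k fell in endotoxemic livers. The others tested did not pass. The interferon element was in the promoters of Eif2s1, which rose, and Eif3a, which did not pass. The NF-kB and ATF4 letters were both in 1 window of Eef2k, at another start site than its E-box, 221 and 84 bases before that start. A match is a stretch of letters and no evidence of binding. The windows of these 3 members are shown with the E-box in capitals, 5′ to 3′ on the strand of the gene, at chr3:138527018-138527267 (+), chr11:69672424-69672673 (-) and chr7:120842581-120842830 (+).
Eif4e: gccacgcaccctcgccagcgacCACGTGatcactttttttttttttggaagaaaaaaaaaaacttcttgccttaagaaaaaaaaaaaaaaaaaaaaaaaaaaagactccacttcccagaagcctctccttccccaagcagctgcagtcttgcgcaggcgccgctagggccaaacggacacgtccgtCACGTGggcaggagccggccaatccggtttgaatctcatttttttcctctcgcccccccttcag
Eif4a1: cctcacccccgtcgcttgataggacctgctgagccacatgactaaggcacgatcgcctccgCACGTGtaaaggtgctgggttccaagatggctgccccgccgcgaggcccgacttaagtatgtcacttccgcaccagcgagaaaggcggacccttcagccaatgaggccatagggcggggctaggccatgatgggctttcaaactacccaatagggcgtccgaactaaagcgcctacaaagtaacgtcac
Eef2k: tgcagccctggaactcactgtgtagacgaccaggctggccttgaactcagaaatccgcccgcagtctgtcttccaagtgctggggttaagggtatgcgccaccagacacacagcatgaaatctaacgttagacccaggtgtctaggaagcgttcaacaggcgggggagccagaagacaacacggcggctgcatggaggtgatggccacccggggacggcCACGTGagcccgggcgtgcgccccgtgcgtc

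The Eif4e window holds 2 E-boxes, at 228 and 64 bases before the start, whereas Eif4a1 has 1 at 189 bases and Eef2k 1 at 31 bases before it.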

How the data were processed

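Liver RNA was turned into libraries with a Lexogen kit that the labels name Quant-Seq. The authors deposited 1 table of counts for each of 8 libraries, as whole numbers of reads on 23282 rows named by symbol, without normalization. The submitters' processing notes name Bowtie2, edgeR and the mm10 build, with no versions, and whether the counting used strand is not given in the sources used here. Whether this kit reads transcript ends or whole transcripts could not be settled from the labels. The counts were not set against transcript length, so a ratio of the counts of 2 genes is compared between libraries and does not say which gene is the more abundant.

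Testing used edgeR 4.0.16 under R 4.3.3 (filterByExpr by group, TMM normalization, quasi-likelihood test, Benjamini-Hochberg adjustment over the 12701 rows tested, threshold 0.05). The 6 distinct libraries entered 1 fit in which group was the sole term, and the common biological coefficient of variation was 0.239. CPM are TMM-normalized, and each SE was obtained from the log2 fold change and its F statistic. Total counts ran from 9142116 to 15222439. The model was tested on simulated data.

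Row order was compared with RefSeq positions on GRCm38, and a row outside the longest ordered set counted as out of order if its gene lay more than 2 Mb away. Gene coordinates are from GENCODE on the same build. The members, gene lists and tests were chosen with earlier results of these data known. The genes given with full values are the 10 largest rises and 10 largest falls past the threshold among members in order, a fixed set of 17 regulators and leading factors, and both members out of order. From each pathway list up to 2 rises and 2 falls are named, by size. Members named outside this rule were chosen after their values were seen. Alternatives were other filters and normalizations, DESeq2 1.42.0, all 8 libraries, only the 2 groups compared, a replicate block, reassigned or omitted out-of-order rows, and leaving out each library.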

Additional observations from a re-analysis of the deposited data

Results flagged for a closer look

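Signal appeared for a pair of matching genes on the sex chromosomes, which the comparisons of autosomal members do not use. Eif2s3y, the Y-linked gene for the gamma subunit of eIF2, had 323 and 190 counts in the LGK974 libraries and 0 in both control and both distinct endotoxemic libraries. Eif1ax, the X-linked gene for eIF1A, had 481 and 557 counts in the LGK974 libraries, beside 190 and 366 in control and 202 and 256 in endotoxemic libraries, and its log2 fold change in LGK974 livers against control was 0.83 (edgeR adjusted p = 0.0223). Eif2s3x, the X-linked partner of Eif2s3y, had 376 and 485 counts in the LGK974 libraries, and its log2 difference from endotoxemic livers was -1.14 (edgeR adjusted p = 0.0143). Against endotoxemic livers, the log2 difference of Eif1ax was 0.58 and did not pass (edgeR adjusted p = 0.174). Eif2s3y, like Ddx3y, was read in the LGK974 libraries alone. Of the X-linked pair, Eif1ax was higher and Eif2s3x lower in these libraries, so they did not move together. The LGK974 libraries are also those whose Xist and Ddx3y differ, and the part of this in any autosomal change was not tested.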

How the results depend on the processing

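No call turned to the opposite direction under any alternative run. For endotoxemic against control, the members' median log2 fold change was 0.403 without a filter, 25 members rose and 7 fell with all 8 libraries as separate samples (3708 and 3929 of 12552 rows), and 20 rose with only those 2 groups fitted (3205 of 12113 rows). Leaving out 1 library gave 7 to 20 higher, 2 to 7 lower and a median of 0.293 to 0.373, beside 11.4% to 24.4% of all rows higher and 13.5% to 26.9% lower. The higher counts came without an LGK974 library. The LGK974 libraries also differed most from each other, by a median absolute log2 difference of 0.427 over all rows, beside 0.264 for control and 0.276 for endotoxemic libraries. For LGK974 against endotoxemic, there were 2 higher and 2 lower without a filter (881 and 824 of 17263 rows), 1 higher with upper-quartile factors (416 of 12701), 1 and 1 with DESeq2, and 5 and 6 with 8 libraries (1711 and 1548 of 12552). Leaving out 1 library gave 0 to 3 in each direction and a median of -0.001 to 0.025, beside 0.2% to 9.0% of all rows higher and 0.2% to 8.2% lower, and over the other alternatives the median lay between -0.015 and 0.057, on both sides of 0. For LGK974 against control, the median was 0.501 with upper-quartile factors, which moved the median of all rows to 0.11, so that the members stood 0.391 above it. With 8 libraries 8 fell (2918 of 12552 rows). Leaving out 1 library gave 6 to 20 higher, 1 to 7 lower and a median of 0.329 to 0.435, beside 1041 to 2608 rows higher and 1331 to 2761 lower of 13016 to 13359. The cause was not tested in any of these. Treating repeated libraries as separate counts 1 sample more than once.

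The same replicate numbers in different groups were not taken as pairs, since the deviations of same-numbered libraries correlated at 0.14, 0.0605 and -0.00749. With a replicate block, 15 rose and 5 fell for endotoxemic against control (2577 and 2908 of 12701 rows), 0 and 0 for LGK974 against endotoxemic (330 and 355), and 19 and 4 for LGK974 against control (2048 and 2259). Eef2k rests on 10 to 68 counts a library.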
